A study of Homo sapiens with 21 samples.

Results

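The hypoxia-responsive genes described here were ADM (adrenomedullin), VEGFA, CA9, NDRG1, EGLN3, BNIP3, ANKRD37, SLC2A1, PDK1 and HILPDA, which are 10 of the 58735 genes in the expression table. The group was built around ADM. This gene belongs to a list that the study had chosen by measured values, namely its higher level in these same libraries after calcium, cadmium and GSK4716 than in control. The other 9 genes were picked as widely known hypoxia-responsive genes, with earlier results of these data in view. For ADM, the differences from control are therefore given as a description with no test. All 10 genes passed the filter on low values and were among the 14686 genes tested. The question asked of the data was whether the higher level of ADM came with higher levels of the other 9 genes.

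Cells sense oxygen through the hypoxia-inducible factors, or HIFs. In normal oxygen, prolyl hydroxylases of the EGLN family mark the HIF-alpha subunits HIF1A and EPAS1 for destruction by the VHL ubiquitin ligase, and when oxygen is low the subunits persist, pair with ARNT and bind a short DNA core in the control regions of their target genes. The targets serve blood supply (VEGFA and ADM, both secreted peptides acting on vessels), glucose uptake and use (SLC2A1, a glucose transporter, and PDK1, a kinase that holds pyruvate back from the mitochondria), pH control (CA9, a carbonic anhydrase of the cell surface), removal of mitochondria (BNIP3), lipid storage (HILPDA) and feedback on the pathway itself (EGLN3). In breast tumours, CA9 and SLC2A1 are used as tissue markers of hypoxia. ADM is also known to respond to other stresses, so a high level of it alone does not define a hypoxic state.

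The cells were MDA-MB-453, a human breast cancer line that is wild type per the labels. The 7 groups had 3 libraries each: control without treatment, calcium (10 mM), cadmium (10 μM), GSK4716 (5 μM, an agonist of the orphan nuclear receptor ESRRB), diethylstilbestrol or DES (10 μM, used as the ESRRB antagonist), DES with calcium and DES with cadmium. Exposure lasted 24 h, and in the combinations DES was given 3 h before the metal. Calcium and GSK4716 were applied in medium without serum and cadmium in medium with diluted charcoal-stripped serum, while all are set against a single control group. GSK4716 and DES were dissolved in ethanol. The medium of the control and of DES alone, and any ethanol in the control, are not given per group, so medium, solvent and agent cannot be told apart. Nothing in the labels says that the 3 libraries of a group came from separate cultures, and p-values then measure only the spread between these libraries. No oxygen level is given in the labels, and no group was described as hypoxic.

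Values are FPKM, a gene's fragments scaled to its length and to the size of the library, so that levels can be compared between genes. Between libraries the scale was not wholly even, since the size by which the authors had scaled a library, set against its recovered fragments, had a ratio of 0.693 to 1.15, lowest in the first DES plus cadmium library. The libraries held 14435925 to 28424805 fragments on genes, with a median of 18314738. MT2A, a metallothionein that cells make in response to cadmium, read 2001, 2288 and 4088 FPKM in the cadmium libraries and averaged 59.6 FPKM in control. The number of genes with at least 1 fragment ranged from 16605 in the first DES plus cadmium library to 35112 in the third DES library. The luminal breast markers ERBB2, GATA3, FOXA1, KRT8, KRT18, KRT19 and EPCAM were expressed in every library, and the 3 endothelial markers (PECAM1, VWF and CDH5) and the 3 leukocyte markers (PTPRC, CD3E and CD14) did not exceed 0.229 FPKM in any. Of 3 fibroblast markers, COL3A1 and PDGFRB did not exceed 0.127 FPKM, while COL1A1 read 9.34 to 32.7 FPKM, highest in the third DES library.

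The DNA core that HIF complexes bind is written ACGTG or GCGTG, and it was looked for on both strands in the 250 bases before the start of 7 of the 10 members. The 4 sequences below are printed for ADM, for CA9, the most uneven member, and for BNIP3 and ANKRD37, which rose with DES, and they differ in how many cores they carry. They are from RefSeq on GRCh38.p14, run 5′ to 3′ in the direction of the gene, and show the cores in capitals. In capitals, CACGT and CACGC are the cores read on the opposite strand, and CACGTG holds ACGTG on both strands. The regions are chr11:10304823-10305072 (plus strand) for ADM, chr9:35673678-35673927 (plus strand) for CA9, chr10:131981924-131982173 (minus strand) for BNIP3 and chr4:185396591-185396840 (plus strand) for ANKRD37.
ADM: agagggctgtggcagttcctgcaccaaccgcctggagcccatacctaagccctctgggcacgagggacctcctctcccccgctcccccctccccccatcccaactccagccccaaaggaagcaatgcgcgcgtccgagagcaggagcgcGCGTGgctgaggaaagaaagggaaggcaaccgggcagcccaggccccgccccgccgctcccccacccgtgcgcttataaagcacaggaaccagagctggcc
CA9: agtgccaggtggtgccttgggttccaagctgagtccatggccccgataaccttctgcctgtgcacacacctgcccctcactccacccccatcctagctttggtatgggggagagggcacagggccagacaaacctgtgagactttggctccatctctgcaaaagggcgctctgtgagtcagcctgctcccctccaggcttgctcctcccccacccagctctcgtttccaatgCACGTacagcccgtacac
BNIP3: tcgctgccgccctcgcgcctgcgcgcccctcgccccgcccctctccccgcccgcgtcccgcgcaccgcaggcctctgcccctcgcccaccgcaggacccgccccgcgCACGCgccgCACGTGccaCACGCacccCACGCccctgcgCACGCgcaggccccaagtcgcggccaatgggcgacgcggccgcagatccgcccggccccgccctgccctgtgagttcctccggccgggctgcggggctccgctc
ANKRD37: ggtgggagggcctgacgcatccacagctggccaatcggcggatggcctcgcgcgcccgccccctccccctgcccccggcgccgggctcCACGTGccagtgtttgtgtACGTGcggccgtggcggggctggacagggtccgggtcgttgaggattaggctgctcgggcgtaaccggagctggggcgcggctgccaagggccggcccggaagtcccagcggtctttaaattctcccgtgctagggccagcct
The ADM sequence held 1 core, GCGTG, from base 101 to base 97 before the start. CA9 had 1 core, ACGTG on the opposite strand, 18 to 14 bases before its start. BNIP3 had 6 cores and ANKRD37 had 3, while the windows of EGLN3 and SLC2A1, not printed, had 0. For 7 of the 10 members 8 entries were read, since PDK1 had 2, with 0 and 2 cores, and 5 of the 8 entries held either core. Among all 35116 promoters of the same length, 43.2% held either core, 18.5% held ACGTG and 32.2% held GCGTG. Each of the 4 windows overlaps, in part or whole, the range that the deposited annotation gives the gene, since that annotation starts these genes further upstream. A match of letters is a description of the sequence and not a binding site.

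The mean of ADM varied by a larger factor across groups than that of any other member. Its levels ran from 0.296 FPKM in a control library to 41.8 FPKM in a DES plus calcium library, which is a 141-fold range. The gene lies on chromosome 11 (10304680 to 10307397, GRCh38.p14, plus strand; ENSG00000148926), and no other annotated gene overlaps it. In control it read 0.364, 0.296 and 0.490 FPKM, which rested on 32, 17 and 22 fragments. Calcium libraries read 5.42, 7.30 and 13.0 FPKM. Cadmium libraries read 0.870, 4.12 and 12.6 FPKM. These 3 cadmium values differed by the largest factor within any group, and the lowest of them was below all calcium values. GSK4716 libraries read 1.29, 0.995 and 1.82 FPKM. DES libraries read 31.5, 26.0 and 36.1 FPKM. The highest ADM levels were thus in the groups given DES and not in those given a metal alone. DES plus calcium libraries read 24.5, 24.1 and 41.8 FPKM. DES plus cadmium libraries read 12.1, 16.2 and 16.6 FPKM.

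**Figure D1:**
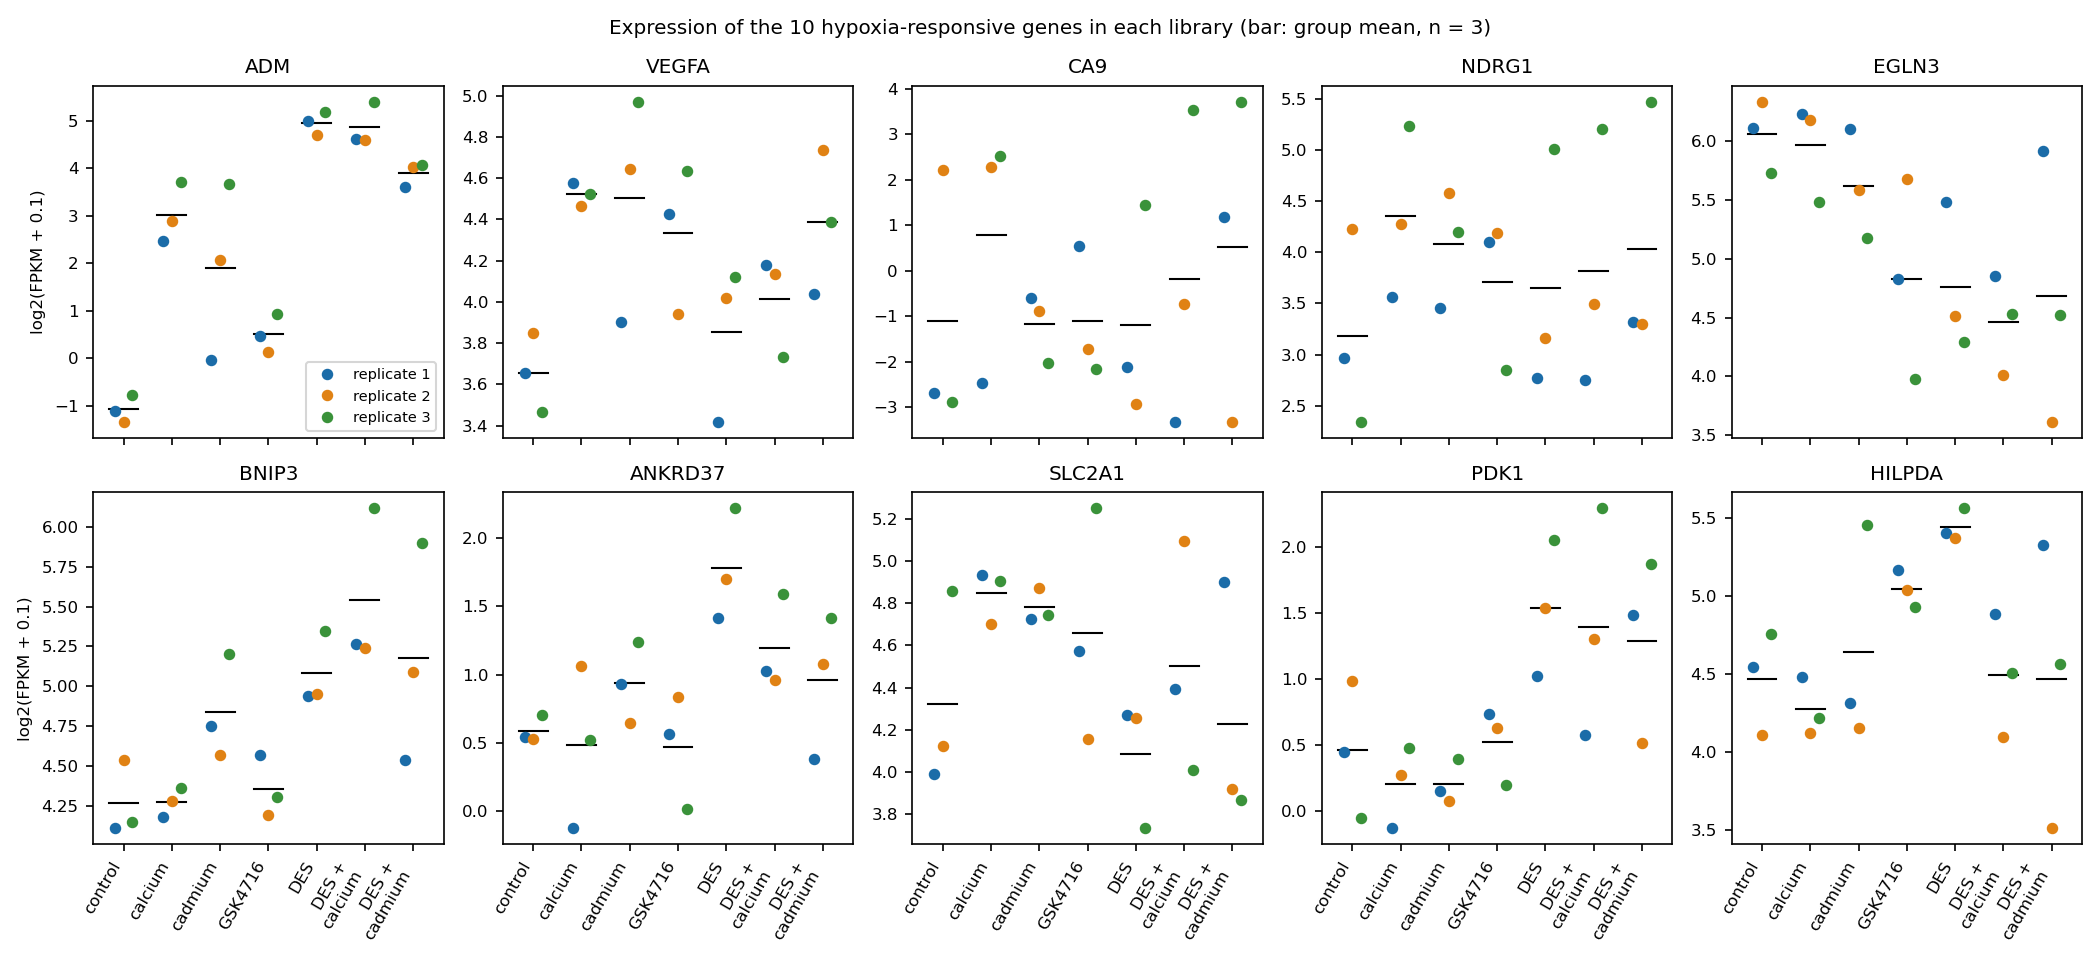
Expression of the 10 hypoxia-responsive genes as log2(FPKM + 0.1) on the vertical axis of each panel, by group on the horizontal axis, with 1 point per library (colour gives the replicate number) and a bar at the mean of the 3 libraries. ADM climbs from at most 0.490 FPKM in control to at least 12.1 FPKM in the 3 groups with DES, while the CA9 and NDRG1 panels show libraries of the same group far apart.

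By group means, ADM stood in the order DES (31.2 ± 5.07 FPKM, SD, n = 3), DES plus calcium (30.1 ± 10.1), DES plus cadmium (15.0 ± 2.48), calcium (8.58 ± 3.95), cadmium (5.85 ± 6.03), GSK4716 (1.37 ± 0.419) and control (0.383 ± 0.0983). Neighbours in this order overlapped in their libraries, except that DES plus cadmium lay below DES plus calcium and GSK4716 lay above control. On the log2(FPKM + 0.1) scale ADM was higher than control by 4.09 (SE 0.37) with calcium, 2.97 (SE 0.89) with cadmium, 1.58 (SE 0.29) with GSK4716 and 6.02 (SE 0.23) with DES. Every library of these 4 groups was above every control library. With a pseudocount of 1 FPKM in place of 0.1 these differences were smaller, at 2.72 for calcium, 1.88 for cadmium, 0.76 for GSK4716 and 4.53 for DES. In bulk RNA of this kind, fewer cells expressing a gene and less RNA of it per cell cannot be told apart.

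With calcium, 1 of the other 9 members changed, and 8 did not pass the test. VEGFA rose, by 0.86 on the log2 scale (SE 0.13, limma adjusted p = 0.0209). Its calcium libraries read 23.8, 22.0 and 22.9 FPKM and its control libraries 12.5, 14.3 and 11.0 FPKM, so the groups did not overlap. Over all genes tested, 7.12% were called in either direction in this comparison, so that 1 of 9 members is close to the background share. The VEGFA call was lost when control library 1, control library 2, calcium library 1 or calcium library 2 was left out, with limma adjusted p of 0.0597 to 0.104. It was also lost with all 7 groups in the fit (limma adjusted p = 0.0728) or without the filter on low values (0.0792).

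The members of glucose handling did not pass the test with calcium. SLC2A1 read 30.4, 25.9 and 29.8 FPKM with calcium against 15.8, 17.4 and 28.9 in control, a log2 difference of 0.52 (SE 0.24, adjusted p = 0.262), and the third control library reached into the calcium range. Without that library the difference was 0.79 and the gene was called (adjusted p = 0.0417). PDK1 averaged 1.07 FPKM with calcium and 1.34 FPKM in control. EGLN3, abundant in these cells, read 75.2, 72.6 and 44.8 FPKM with calcium and 69.3, 80.7 and 53.0 FPKM in control. NDRG1, a differentiation-associated gene that hypoxia induces in many cell types, read 11.7, 19.3 and 37.4 FPKM with calcium against 7.71, 18.6 and 4.97 in control (log2 difference 1.18, SE 0.60, adjusted p = 0.303). Of the others, BNIP3 differed by 0.01 (95% interval -0.35 to 0.37) and HILPDA by -0.19 (-0.67 to 0.28). The median over the 9 members was 0.01 and over all genes -0.01.

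With cadmium, 0 of the other 9 members passed the limma test at an adjusted p under 0.05, against 0.15% of all genes. At an unadjusted p under 0.05 there were 2, VEGFA and BNIP3, beside 25.9% of all genes, and limma-voom on the recovered fragments called 0. VEGFA read 14.8, 24.9 and 31.2 FPKM with cadmium, all above the highest control library, and its log2 difference of 0.85 (SE 0.29, adjusted p = 0.142) was close in size to that with calcium but had a wider spread. Without the first cadmium library, which had the lowest ADM and the lowest VEGFA of its group, the VEGFA difference was 1.15 and was called (adjusted p = 0.032), in a fit that called 1605 of all 14686 genes in place of 22. BNIP3, a mitochondrial outer membrane protein of mitophagy, read 26.8, 23.7 and 36.7 FPKM against 17.2, 23.1 and 17.7 in control, a log2 difference of 0.57 (SE 0.21, adjusted p = 0.16). Both genes had no overlap between cadmium and control, which was so of 34.4% of all genes. HILPDA read 43.7 FPKM in the third cadmium library, which also had the highest ADM of that group, and 19.8 and 17.7 FPKM in the other two. The 9 members had a median difference of 0.35, and that over all genes was 0.04.

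GSK4716 called 0 of the other 9 members and 0 of the 14686 genes (0%) by limma. At an unadjusted p under 0.05 there were 2404 genes (16.4%), 3 of them members, and limma-voom called 79 genes, 0 of them members. The 3 members were VEGFA (21.4, 15.3 and 24.7 FPKM, log2 difference 0.68, adjusted p = 0.208), HILPDA (35.7, 32.8 and 30.4 FPKM, 0.58, adjusted p = 0.22) and EGLN3 (28.4, 51.1 and 15.6 FPKM against 69.3, 80.7 and 53.0 in control, -1.23, adjusted p = 0.255). Each of them had its 3 GSK4716 libraries wholly above or wholly below the control libraries, as had 22.1% of all genes. The 3 comparisons with calcium, cadmium and GSK4716 use the same 3 control libraries, so that a high or low control value enters all of them.

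DES gave the most calls among the members. Of the other 9, 3 rose and 1 fell, which is 4 of 9 against 29.6% of all genes called in either direction. HILPDA, a small lipid droplet protein, rose by 0.97 (SE 0.19, adjusted p = 0.0116). Its DES libraries read 42.1, 41.3 and 47.1 FPKM and its control libraries 23.3, 17.1 and 26.9 FPKM. BNIP3 rose by 0.81 (SE 0.19, adjusted p = 0.0191), with 30.6, 30.9 and 40.6 FPKM in the DES libraries, all above the highest control library at 23.1. ANKRD37, an ankyrin repeat protein of low abundance here, rose by 1.19 (SE 0.26, adjusted p = 0.0158), from 1.35, 1.34 and 1.52 FPKM in control to 2.57, 3.15 and 4.56 FPKM. EGLN3, the prolyl hydroxylase that HIF itself induces, moved the other way. It fell by 1.30 (SE 0.33, adjusted p = 0.026), with 44.6, 22.7 and 19.5 FPKM in the DES libraries, all below the lowest control library at 53.0.

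PDK1 was also higher in every DES library (1.93, 2.81 and 4.05 FPKM) than in any control library (1.26, 1.88 and 0.866), but its difference of 1.08 (SE 0.37) had an adjusted p of 0.0666. Of all genes, 48.8% had no overlap between DES and control. VEGFA, by contrast, overlapped between DES (10.6, 16.1 and 17.3 FPKM) and control, and differed by 0.20 (95% interval -0.33 to 0.72, adjusted p = 0.525). SLC2A1 differed by -0.24 (-0.88 to 0.40) and NDRG1 by 0.47 (-1.12 to 2.06). The treatment with the highest ADM thus had no detectable VEGFA or SLC2A1 difference, and the difference of VEGFA that calcium showed was not compared with that of DES by a test. Of the 4 calls, HILPDA was kept when any library was left out, BNIP3 was lost without control library 1 or 3, ANKRD37 without control library 1 or 2 or DES library 2, and EGLN3 without control library 1 or 2 or DES library 2 or 3. Without the filter on low values all 4 had adjusted p of 0.0638 to 0.164. HILPDA and EGLN3, like SLC2A1, are each overlapped by 2 annotated genes on their own strand, between which fragments could be split, so their values are uncertain to that extent.

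**Figure D2:**
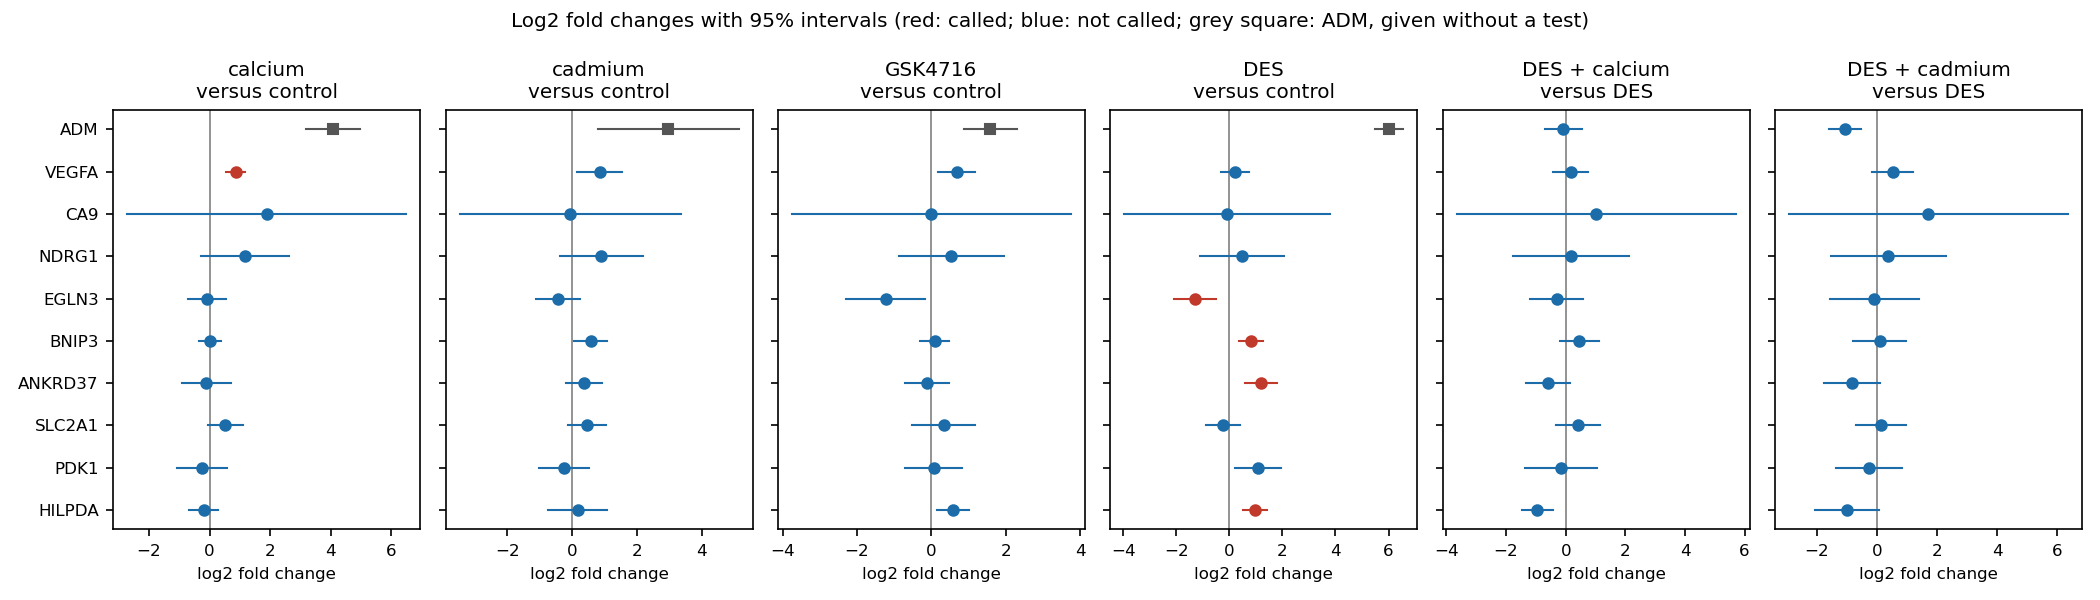
Log2 fold changes on the log2(FPKM + 0.1) scale (horizontal axis) of the 10 members (rows) in 6 comparisons (panels), with bars for the 95% intervals from limma, red for genes called, blue for genes not called and grey squares for ADM where no test is given. The ADM squares lie at 4.09, 2.97, 1.58 and 6.02 in the comparisons with control, VEGFA is red with calcium, and HILPDA, BNIP3, ANKRD37 and EGLN3 are red with DES, EGLN3 on the negative side.

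With calcium added to DES, ADM overlapped with its range under DES alone. The log2 difference was -0.09 (95% interval -0.71 to 0.54, limma adjusted p = 0.901), and 0 of the 10 members were called, against 0.136% of all genes; limma-voom called 0 too. At an unadjusted p under 0.05 there was 1, HILPDA, beside 13.2% of all genes. It read 29.4, 17.0 and 22.6 FPKM with DES plus calcium, all below the 41.3 to 47.1 FPKM of DES alone (log2 difference -0.95, SE 0.22, adjusted p = 0.201), and 19.9% of all genes had no overlap between these groups. ANKRD37 read 1.93, 1.84 and 2.92 FPKM and differed from DES by -0.59 (SE 0.31, adjusted p = 0.455). BNIP3 had its highest value of the series in this group, 69.3 FPKM in the third library, beside 38.4 and 37.7 FPKM in the others. EGLN3 stayed within reach of its DES level, at 28.9, 16.01 and 23.0 FPKM (log2 difference -0.30, SE 0.37). VEGFA read 18.02, 17.5 and 13.2 FPKM, below its level with calcium alone in every library.

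Adding cadmium to DES came with lower ADM, at 12.1 to 16.6 FPKM against 26.0 to 36.1 FPKM with DES alone. The difference was -1.06 (SE 0.23, unadjusted p = 0.00281), but it did not pass the correction over all genes (limma adjusted p = 0.177). All 3 DES plus cadmium libraries were below all 3 DES libraries. Of the 10 members 0 were called, against 0.266% of all genes, ADM was the only member with an unadjusted p under 0.05, beside 10.4% of all genes, and limma-voom called 0. HILPDA (39.9, 11.3 and 23.6 FPKM, -0.98, SE 0.44) and ANKRD37 (1.20, 2.01 and 2.56 FPKM, -0.82, SE 0.39) were also below their DES libraries in all 3, with adjusted p of 0.51 and 0.532. Of all genes, 16.2% did not overlap between these groups. VEGFA read 16.3, 26.5 and 20.8 FPKM and overlapped with DES (0.53, SE 0.29, adjusted p = 0.593). EGLN3 read 60.5 FPKM in the first library and 12.1 and 22.8 FPKM in the others, a wider range than in any other group. That first library also had the highest SLC2A1 of its group (29.8, 15.0 and 14.5 FPKM) and, as given above, the fewest genes detected of all libraries.

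Whether a metal acted differently with DES than without it was asked with the interaction term, the change with DES minus the change without. For ADM this was -4.18 with calcium and -4.02 with cadmium, given as a description because the changes from control enter it. Among the other 9 members 0 were called for calcium (3.63% of all genes) and 0 for cadmium (1.18% of all genes) by limma, and limma-voom called 0 in both. At an unadjusted p under 0.05 the calcium term had 2 members, VEGFA (-0.70, SE 0.28, adjusted p = 0.193) and HILPDA (-0.75, SE 0.31, adjusted p = 0.199), and the cadmium term had ANKRD37 (-1.17, SE 0.45, adjusted p = 0.194). Of all genes, 19.9% and 18.5% were at such a p, so these counts are near the background. Without the first DES library VEGFA was called in the calcium term (-0.92, adjusted p = 0.0452).

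A wider list of 40 other HIF target genes was examined in the same way, and 32 of them were expressed enough to be tested. IGFBP3, among these 32, is on the study's list of genes lower after calcium, cadmium and GSK4716 than in control in these same libraries. It is not among the calls named below. Its differences from control still enter the counts at an unadjusted p and the medians, which were in part selected for that reason. With calcium, 3 rose and 1 fell, which is 4 of 32 against 7.12% of all genes. ERO1A, an oxidase of the endoplasmic reticulum that forms disulfide bonds, rose by 1.63 (SE 0.24, adjusted p = 0.0195), from 8.16, 9.14 and 9.20 FPKM in control to 19.9, 28.1 and 37.4 FPKM. P4HA2, a prolyl hydroxylase of collagen, rose by 0.96 (adjusted p = 0.0226), and WSB1, part of a ubiquitin ligase, by 0.76 (adjusted p = 0.0252). DDIT4, an inhibitor of mTORC1 signalling that hypoxia and other stresses induce, fell by 0.97 (SE 0.12, adjusted p = 0.015), from 109, 113 and 97.9 FPKM to 55.8, 59.1 and 48.7 FPKM. The list had a median of -0.10, and all genes had -0.01. The count of 4 went to 0 without control library 1 or 2, and to 1 without calcium library 1 or 2. Calls over all genes went from 1046 to 7 and 46 and to 357 and 285 in the same fits.

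Cadmium and GSK4716 each called 0 of these 32 genes by limma, with 7 and 6 at an unadjusted p under 0.05, where 25.9% and 16.4% of all genes were. Limma-voom called 2 with cadmium, both lower, and 0 with GSK4716. Without the first cadmium library limma called 3 of the 32, and 1605 of the 14686 genes. With DES, 3 rose and 4 fell, which is 7 of 32 against 29.6% of all genes. CXCR4, a chemokine receptor, rose by 2.32 (SE 0.53, adjusted p = 0.0189), from 2.62, 4.30 and 0.952 FPKM to 13.7, 7.37 and 15.1 FPKM. EFNA3, an ephrin ligand, rose by 1.28 (SE 0.20, adjusted p = 0.00524). MIR210HG, the host transcript of the hypoxia-induced microRNA miR-210, fell by 2.49 (SE 0.53, adjusted p = 0.0141), from 2.69, 7.28 and 2.06 FPKM to 0.381, 0.414 and 0.910 FPKM. INSIG2, a regulator of sterol synthesis, fell by 1.08 (SE 0.19, adjusted p = 0.00773). The remaining calls were EFNA1 (higher by 0.85), ZNF395 (-0.74) and AK4 (-0.55). The list had a median of -0.14 with DES, and all genes had 0.05. The 7 calls were in both directions, and the other genes on the list did not pass the test. The count of 7 fell to 3 without control library 1, to 4 without control library 2, DES library 2 or DES library 3, and was 10 without DES library 1, while the calls over all genes went from 4340 to 1930, to 2128, 2440 and 4189, and to 5078. Neither metal on top of DES, nor either interaction term, called any of the 32, with 4, 2, 8 and 4 at an unadjusted p under 0.05, where 13.2%, 10.4%, 19.9% and 18.5% of all genes were. By limma-voom there were 2 in the calcium interaction, both negative, and 0 in the other 3.

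**Figure D3:**
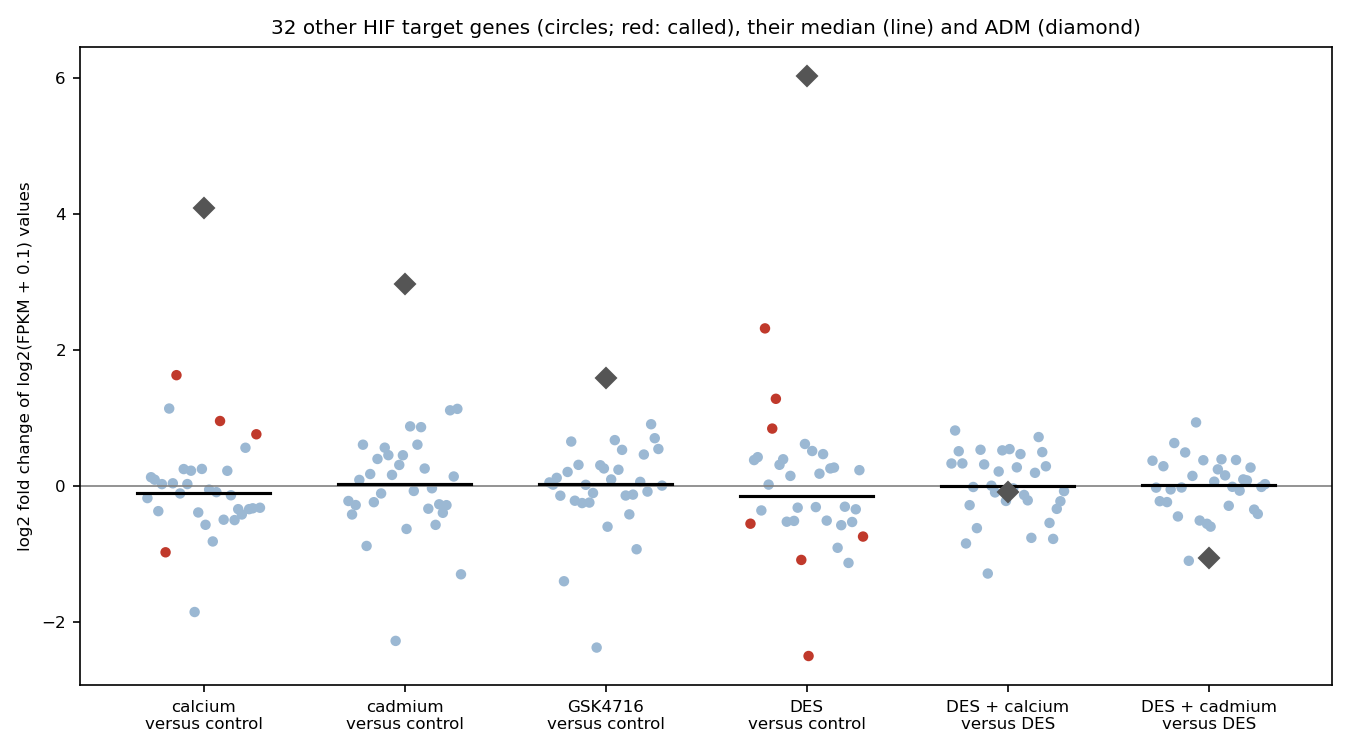
Log2 fold changes on the log2(FPKM + 0.1) scale (vertical axis) of the 32 other HIF target genes tested (circles, red where called) in 6 comparisons (horizontal axis), with their median as a line and ADM as a diamond. The medians lie between -0.14 and 0.04 in every comparison, and the ADM diamonds of 4.09, 2.97, 1.58 and 6.02 against control stand above every circle of their column.

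The machinery of the pathway was read from a list of 15 genes, 13 of them tested. HIF1A itself averaged 10.4 FPKM in control, 15.0 with calcium, 11.4 with cadmium, 12.4 with GSK4716 and 13.2 with DES, and was called in none of the comparisons. Its protein, which is the regulated form, was not measured. Calcium, cadmium and GSK4716 called 0 of the 13 by limma, with 1, 2 and 1 at an unadjusted p under 0.05, and limma-voom called 0 in each. Of all genes, 7.12%, 0.15% and 0% were called and 23.5%, 25.9% and 16.4% had such a p. With DES, 2 rose and 5 fell, which is 7 of 13 against 29.6% of all genes. EGLN2, another prolyl hydroxylase, rose by 2.12 (SE 0.21, adjusted p = 0.0013), from 1.27, 1.42 and 1.17 FPKM to 4.94, 7.01 and 5.97 FPKM, and ELOC, the elongin C subunit of the VHL complex, rose by 0.92. HIF1AN, the asparaginyl hydroxylase that limits HIF activity, fell by 1.22 (SE 0.19, adjusted p = 0.00517), and CUL2, the scaffold of the VHL complex, fell by 0.98. EPAS1 fell by 0.70 from 14.2 to 8.81 FPKM on average, EGLN1 by 0.68 from 15.4 to 9.64 FPKM and EP300, a coactivator, by 0.55. Of the 4 oxygen-dependent hydroxylases of the pathway, EGLN2 thus rose with DES while EGLN1, HIF1AN and the member EGLN3 fell.

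EGLN2 was also the only gene of this list called in an interaction term. It averaged 1.34 ± 0.189 FPKM (SD, n = 3) with DES plus cadmium and 1.29 ± 0.129 FPKM in control, and the cadmium term was -2.61 (SE 0.33, adjusted p = 0.0091). With DES plus calcium it read 5.82, 1.87 and 2.72 FPKM, in which only the first library was in the range of DES alone. The annotated read-through gene RAB4B-EGLN2 overlaps EGLN2 on the same strand, so its fragments could be split between both genes and these values are uncertain.

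Of 11 other genes of the adrenomedullin system, 5 were tested. The receptor CALCRL was listed at 0 in 19 of the 21 libraries and did not exceed 0.0297 FPKM, and its partners RAMP1, RAMP2 and RAMP3 did not exceed 0.159 FPKM. PAM, the enzyme that amidates the adrenomedullin peptide, rose with calcium by 1.41 (SE 0.25, adjusted p = 0.0302), from 1.97, 2.67 and 2.48 FPKM to 4.78, 6.54 and 8.43 FPKM. That is 1 of 5 called, beside 7.12% of all genes, and PAM was the only positive difference of the 5 with calcium (median -0.36). ADM5, a related gene, fell with DES by 1.35 (adjusted p = 0.0201), which is 1 of 5 called, beside 29.6% of all genes. With DES none of the 5 differences was positive (median -0.67), and 3 of the 5 lay wholly below control, as did 22.9% of all genes. Among 9 other VEGF ligands and receptors, 4 were tested, and the coreceptor NRP1, named after its values were seen, averaged 0.326 FPKM in control and 1.46 FPKM with calcium. NRP1 passed the filter on low values through its calcium libraries, so no test of that difference is given. The VEGF receptors FLT1 and KDR did not exceed 0.0913 FPKM in any library.

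Glycolytic enzymes, of which 15 of 16 were tested, had 3 rises with calcium, beside 7.12% of all genes called: PFKP by 1.69 (SE 0.16, adjusted p = 0.00951), ENO2 by 0.74 (adjusted p = 0.032) and ALDOA by 0.64 (adjusted p = 0.0459). PFKP, a phosphofructokinase, went from 23.6, 34.6 and 25.6 FPKM to 89.9, 92.4 and 85.5 FPKM and was lower again in the presence of DES (22.7, 33.9 and 38.2 FPKM with DES plus calcium), with a calcium interaction of -1.40 (adjusted p = 0.0342). This call was lost without control library 1 or 3, calcium library 1 or 2, DES library 3 or DES plus calcium library 1 (limma adjusted p = 0.0574 to 0.0917), and without the filter (0.123). PFKM and ALDOA rose with DES by 0.69 and 0.62, which is 2 of 15 against 29.6% of all genes called in either direction, a share above that of the list. The ALDOA values are uncertain, since the annotated gene AC093512.2, described in the table as an ALDOA transcript, overlaps it on the same strand and fragments could be split between them. AC093512.2 is itself on the study's list of genes lower after calcium, cadmium and GSK4716 than in control in these same libraries. Its differences from control are therefore given as a description with no test. AC093512.2 read 2.74, 3.51 and 2.32 FPKM in control and 1.61, 1.44 and 0.901 FPKM with calcium, lower in every library. Its log2 difference was -1.08 (SE 0.29) with calcium and -0.16 (SE 0.24) with DES. Calls did not stand for the list as a whole, in which 7 of 15 differences from control were positive with calcium (median -0.07) and 10 with DES (median 0.26). With cadmium and GSK4716 limma and limma-voom called 0 of the 15, with 8 and 4 at an unadjusted p under 0.05, where 25.9% and 16.4% of all genes were. Limma called 0.15% and 0% of all genes. Of the 15 differences, 6 and 2 were positive (medians -0.24 and -0.34). Of the 15, 7 lay wholly below control with cadmium and 4 with GSK4716, where 16.7% and 11.5% of all genes did. Cadmium on top of DES called 0 by either tool, with 3 at an unadjusted p under 0.05, and all 15 differences from DES were positive (median 0.55, all genes -0.04). Of all genes, 0.266% were called by limma and 10.4% had such a p. The cadmium interaction called 0 by either tool too, with 8 at an unadjusted p under 0.05 and a median of 1.00 against -0.09 for all genes. There 1.18% of all genes were called by limma and 18.5% had such a p. Among 13 paralogs of the members, 7 were tested, and of those not yet named PDK3 fell with DES by 1.21 (adjusted p = 0.0294), while PDK1 was higher in every DES library.

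None of the calls with calcium in these lists held in all 6 omissions of a library. ALDOA was lost in 6 of them, PAM, WSB1 and ENO2 in 5, P4HA2 in 4, ERO1A and DDIT4 in 3 and PFKP in 1. Without control library 1, none of ERO1A, P4HA2, WSB1, DDIT4, PAM, PFKP, ENO2 and ALDOA was called by limma, and their adjusted p were 0.056 to 0.182. With DES, the calls of EGLN2, HIF1AN, CUL2, ELOC, EFNA3 and INSIG2 were kept when any library was left out. Of the other calls with DES, those of EFNA1, EP300, ALDOA and PDK3 were lost in 5 of the 6 omissions, those of EPAS1, EGLN1 and AK4 in 4, those of ADM5 and PFKM in 3, those of CXCR4 and ZNF395 in 2 and that of MIR210HG in 1.

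CA9 was the least even gene of the group. It was read at 0.0556, 4.56 and 0.0362 FPKM in control, from 3, 161 and 1 fragments. Calcium libraries read 0.0805, 4.76 and 5.67 FPKM, and cadmium libraries 0.560, 0.442 and 0.146 FPKM. GSK4716 libraries read 1.35, 0.202 and 0.126 FPKM. In each of these groups except cadmium, the highest library was over 10 times the lowest. DES libraries read 0.132, 0.0320 and 2.60 FPKM. With DES plus calcium the 3 libraries had 0, 0.498 and 11.4 FPKM, and with DES plus cadmium 2.16, 0 and 13.0 FPKM. The spread within groups was 2.64 on the log2 scale (SD), which was above that of 99.96% of the genes tested (median 0.40). CA9 was called in none of the comparisons, and with calcium its log2 difference of 1.89 had a 95% interval of -2.72 to 6.50. A library with no CA9 fragment allows up to 3 fragments, which covers counting error only. CA9 is overlapped on the other strand by ARHGEF39, and the labels do not settle whether the libraries kept the strand.

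NDRG1 and PDK1 mostly went with CA9 from library to library, but not in the cadmium group, where NDRG1 (10.8, 23.8 and 18.3 FPKM) was lowest where CA9 was highest and PDK1 (1.01, 0.958 and 1.21 FPKM) was highest where CA9 was lowest. NDRG1 read 7.71, 18.6 and 4.97 FPKM in control, highest where CA9 was highest. With DES it read 6.71, 8.84 and 32.1 FPKM, with DES plus calcium 6.65, 11.1 and 36.8 FPKM, and with DES plus cadmium 9.85, 9.74 and 44.2 FPKM. In all 3 groups with DES, the library numbered 3 was the highest in CA9, NDRG1, PDK1 and BNIP3, and also in ADM and ANKRD37. ADM was highest in the library numbered 3 in each of the 7 groups. When each library was taken as its difference from its own group mean, the correlation with CA9 over the 21 libraries was 0.89 for PDK1, 0.83 for NDRG1, 0.60 for BNIP3 and 0.46 for ANKRD37. It was 0.08 for ADM, -0.19 for VEGFA, -0.29 for SLC2A1, 0.13 for EGLN3 and 0.03 for HILPDA. These are descriptions, and the points share libraries, depth and group means. The low CA9 values rest on few fragments.

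Among the 32 other HIF target genes, 9 (28.1%) had a correlation with CA9 above 0.5 in these within-group differences, where 6.04% of all genes tested did. The highest were PLOD2, a collagen lysyl hydroxylase (0.82), BNIP3L, a mitophagy receptor related to BNIP3 (0.78), CXCR4 (0.77) and PFKFB4, a regulator of glycolysis (0.76), which were picked out after their values were seen. PLOD2 read 3.89, 7.10 and 3.40 FPKM in control and from 1.32 to 5.81 FPKM with DES plus cadmium, and in both groups its highest library was that of CA9. CA12, another carbonic anhydrase, had -0.59 and BHLHE40, a transcriptional repressor, -0.54. The third DES library, high in this set, was also the library with the most genes detected, and the part of this in the result was not tested. ADM and VEGFA had correlations of 0.08 and -0.19 with CA9 and of 0.56 with each other in the same differences.

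**Figure D4:**
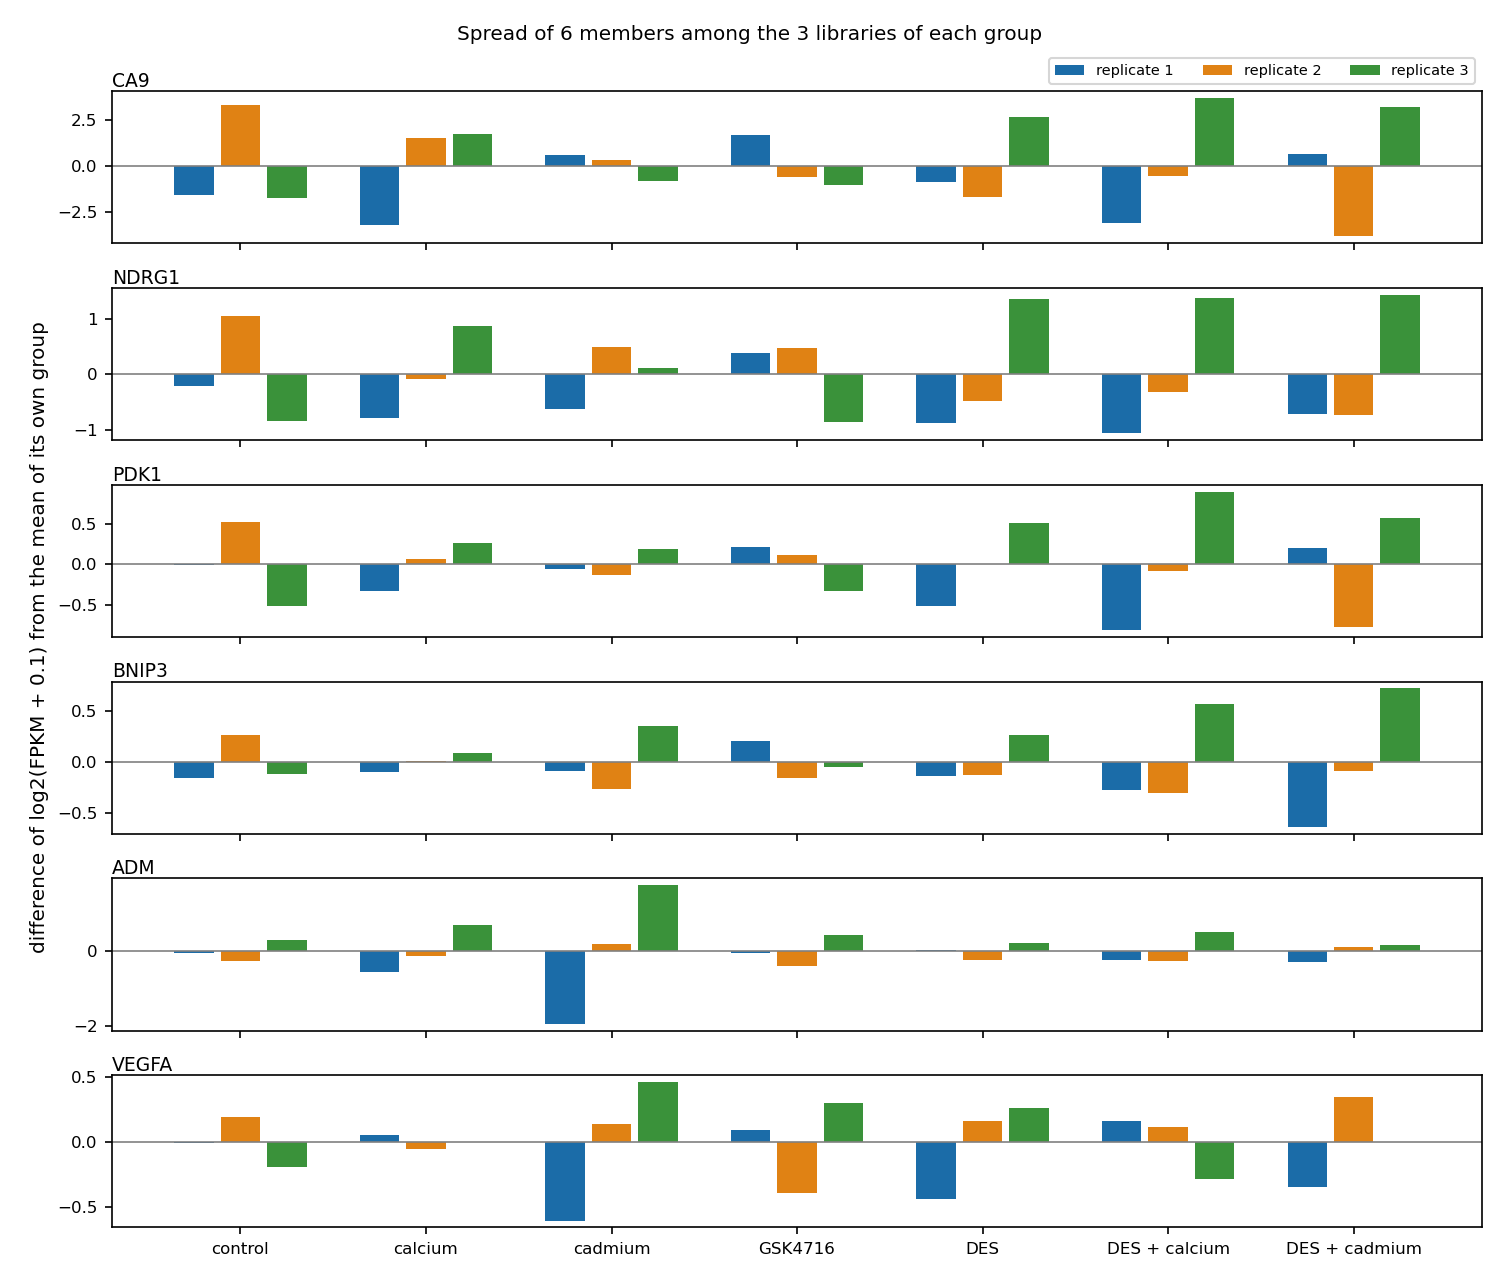
Difference of log2(FPKM + 0.1) from the mean of the library's own group (vertical axis, a separate scale for each gene) for 6 members in the 7 groups (horizontal axis), with 1 bar per library coloured by replicate number. CA9, NDRG1, PDK1 and BNIP3 share their high library in control (replicate 2) and in the 3 groups with DES (replicate 3), while ADM has replicate 3 as its highest library in all 7 groups and differs most in cadmium, and the correlations of the differences with CA9 are 0.89 for PDK1 and 0.08 for ADM.

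Over the 21 libraries as a whole, the level of ADM on the log2(FPKM + 0.1) scale had a correlation of 0.70 with BNIP3, 0.60 with ANKRD37, 0.57 with PDK1, 0.26 with NDRG1, 0.21 with VEGFA, 0.18 with HILPDA, 0.16 with CA9, -0.16 with SLC2A1 and -0.55 with EGLN3. Differences between groups enter these values, and after the group means were taken out they were 0.56 for VEGFA, 0.39 for BNIP3, 0.31 for HILPDA, 0.30 for NDRG1 and -0.48 for EGLN3, and between -0.01 and 0.25 for the other 4 members. Among 10108 protein-coding genes with a mean of at least 1 FPKM, BNIP3 ranked 508 and VEGFA 3895 in likeness to ADM. The 5 genes most like ADM were PPP1R15A (0.95), a phosphatase subunit of the integrated stress response, ZMYM5 (0.94), a zinc finger protein, DUSP10 (0.94), a phosphatase of stress-activated MAP kinases, BCL10 (0.94), a signalling adaptor, and TPM1 (0.93), a tropomyosin. None of the 5 is a member or on the list of HIF target genes, and PPP1R15A and DUSP10 are on the same list of the study as ADM, so their likeness was in part selected on these libraries. The mean of PPP1R15A in control was 6.36 ± 2.58 FPKM (SD, n = 3). GSK4716 libraries averaged 14.8 ± 4.30 FPKM, calcium libraries 44.0 ± 17.2 and cadmium libraries 67.1 ± 66.0. Its means were highest in the groups with DES, at 155.3 ± 28.8 with DES, 151.2 ± 18.4 with DES plus calcium and 191.7 ± 72.0 with DES plus cadmium.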

How the data were processed

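RNA sequencing of MDA-MB-453 cells had been done in 7 groups of 3 libraries. The deposited values are FPKM per gene and library, which the authors had made from paired-end reads aligned and counted per gene; the submitters' processing notes name HISAT2 2.0.5, featureCounts 1.5.0-p3 and GRCh38.p14. The labels give a protocol for directional and for non-directional libraries and do not say which was used, so that reads of overlapping genes on opposite strands may not have been separated. With the gene lengths in the table, 100% of the values gave whole fragments within 0.02, and depth was taken from these. No 2 libraries shared more than 4.97% of their detected genes at equal fragments.

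Genes with a mean of at least 0.5 FPKM over the 21 libraries were tested on log2(FPKM + 0.1) with limma 3.58.1 (R 4.3.3), only the groups compared being in each fit. Fold changes on this scale understate the change of genes with low values. Tests were two-sided, p-values were adjusted by the Benjamini-Hochberg method over all 14686 genes, and genes with an adjusted p under 0.05 were called. An exact permutation test of 3 against 3 libraries cannot go below p = 0.1 and was not used. The fits were tried on data simulated with a fixed fold change in known genes. Of the changed genes, 47% were recovered for calcium and 42.6% for DES against control. The share was 43.4% for DES plus cadmium against DES and 38.9% for the calcium interaction. A gene that was not called may therefore have changed. Promoters were searched in Python 3.11.15 with pandas 2.3.3, and figures drawn with matplotlib 3.10.9 on numpy 2.4.6.

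The members and gene lists were chosen with earlier results of these data known. Beside the members, genes were named as the 2 largest rises and 2 largest falls among the calls of each list with a mean of at least 1 FPKM, genes of the HIF pathway and the adrenomedullin system by their levels, and the 5 genes most like ADM. WSB1, EFNA1, ZNF395, AK4, the level of NRP1, AC093512.2 and, with calcium, ALDOA lay outside this rule and were named after their values were seen. The pseudocount, the filter, the scaling, the groups in the fit, limma-voom on the fragments, a block for the replicate number and each library's omission were tried as alternatives.

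Samples of the same number deviated together from their group means in DES plus calcium against DES (correlations 0.132, 0.103 and 0.280) and in DES plus cadmium against DES (0.472, 0.121 and 0.313), so that the numbers may pair the libraries there. All SE, intervals and p-values given for these 2 comparisons are from fits without pairing. With the replicate block, the count of members called in both of these comparisons was 0, as without it. Calls over all genes went from 20 and 39 to 0 in both. Genes at an unadjusted limma p under 0.05 went from 1941 to 2448 with calcium and from 1526 to 2543 with cadmium.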

Additional observations from a re-analysis of the deposited data

Results flagged for a closer look

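The ADM differences with cadmium had opposite signs with and without DES. Without DES, all 3 cadmium libraries (0.870 to 12.6 FPKM) were above all 3 control libraries (0.296 to 0.490 FPKM). With DES, all 3 libraries given cadmium as well (12.1 to 16.6 FPKM) were below all 3 given DES alone (26.0 to 36.1 FPKM), but this difference of -1.06 did not pass the limma test (adjusted p = 0.177), and 16.2% of all genes had no overlap in that comparison. The effect with DES minus the effect without was -4.02 on the log2 scale (SE 0.96), and since ADM had been selected on the first of these differences, the difference between the effects was not tested. It ranged from -4.99 without cadmium library 1 to -3.14 without cadmium library 3.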

How the results depend on the processing

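The member calls with calcium were 1 and became 0 without the filter on low values, with all 7 groups in the fit and with the replicate block; those with DES were 4 and became 0 without the filter, 2 with all 7 groups, 3 at a mean of at least 2 FPKM and 5 with limma-voom. The calls among the 32 other HIF target genes, 4 with calcium, became 0 without the filter, 2 with all 7 groups, 1 with the replicate block and 6 with limma-voom. With DES they became 3 without the filter and 8 with limma-voom. With cadmium they became 1 at a mean of at least 2 FPKM, 2 with all 7 groups and 2 with limma-voom. With all 7 groups they became 1 in DES plus calcium against DES, 2 in DES plus cadmium against DES and 2 in the cadmium interaction, which was 1 with a pseudocount of 1. In the calcium interaction they were 2 with limma-voom and 1 with the replicate block. Over the members and the called genes of all lists, 26 single calls were lost without the filter, 15 with the replicate block and 11 with all 7 groups, and 1 was gained with limma-voom. The causes were not tested, except that the fit without the filter tests more genes. In the comparisons with control the correlations by replicate number were -0.0791 to 0.179, a range that takes in some of those against DES. Whether the numbers pair libraries there was not settled. Under median-ratio scaling the only count of members or targets that moved was that of targets with DES, from 7 to 8. Directions reversed for BNIP3 with calcium (-0.0037 under median-ratio scaling, -0.0029 with limma-voom), for CA9 with cadmium (0.57 with limma-voom), with GSK4716 (-0.31 at a pseudocount of 1) and with DES (0.013 with limma-voom), and for PDK1 in the cadmium interaction (-0.014 at a pseudocount of 1); none of these was called. For ADM a pseudocount of 1 gave -2.80 and -2.89 in the calcium and cadmium interactions. When each library was left out in turn, members called ranged from 0 to 2 with calcium, 0 to 1 with cadmium, 1 to 5 with DES and 0 to 1 in the calcium interaction, and other HIF target genes from 0 to 4 with calcium, 0 to 3 with cadmium, 3 to 10 with DES and 0 to 1 in each interaction. Of the log2 differences of members, those whose direction turned were not called with all libraries, and their ranges follow. For calcium these were EGLN3 -0.26 to 0.15, BNIP3 -0.069 to 0.14, ANKRD37 -0.39 to 0.20 and PDK1 -0.51 to 0.0091. For cadmium these were CA9 -0.94 to 1.61, PDK1 -0.51 to 0.011 and HILPDA -0.24 to 0.41. For GSK4716 these were CA9 -0.88 to 1.67, BNIP3 -0.017 to 0.22, ANKRD37 -0.30 to 0.11 and PDK1 -0.19 to 0.32. For DES these were CA9 -1.40 to 1.58, NDRG1 -0.21 to 0.99 and SLC2A1 -0.40 to 0.029. For DES plus calcium against DES these were ADM -0.35 to 0.050, VEGFA -0.056 to 0.30, CA9 -0.83 to 2.59, NDRG1 -0.52 to 0.85, EGLN3 -0.53 to 0.064 and PDK1 -0.60 to 0.26. For DES plus cadmium against DES these were NDRG1 -0.34 to 1.06, EGLN3 -0.70 to 0.46, BNIP3 -0.27 to 0.41, SLC2A1 -0.19 to 0.32 and PDK1 -0.54 to 0.14. For the calcium interaction these were CA9 -2.73 to 0.70, EGLN3 -0.44 to 0.16, SLC2A1 -0.41 to 0.14 and PDK1 -0.34 to 0.51. For the cadmium interaction these were NDRG1 -1.24 to 0.16, EGLN3 -0.26 to 0.89 and PDK1 -0.28 to 0.39. With 3 libraries a group, and with few fragments for CA9, the directions of these differences were not settled.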
